A study of Mus musculus with 10 samples.

Results

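Neutrophil and macrophage genes were followed in kidney cortex of diabetic mice, as a set of 47 named genes of the myeloid blood cell lineage. The genes were found in the expression table by Entrez Gene ID, and 46 of the 47 had a row among the 16475 genes measured; Lilrb4a was not analysed here. The samples were cortex deprived of glomeruli, taken at 24 weeks of age from 5 db/db and 5 db/m mice on the BKS background, and each mouse gave 1 Affymetrix array. The db/db mice carry the diabetes mutation of the leptin receptor gene Lepr and were diabetic, the db/m mice were their nondiabetic littermates, and neither group was treated. The labels used here do not state sex, and the db mutation acts in the whole body, so obesity and diabetes come together in this model. Values are log2 expression levels, so a difference of 1 is 2-fold, and they are compared between mice for 1 gene at a time, never between genes.

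Neutrophils are short-lived blood cells that enter inflamed tissue and carry granules of antimicrobial proteins and proteases. Macrophages take up debris and microbes; some live in the kidney for long periods and depend on signals through the receptor Csf1r, while others arrive as monocytes from blood during injury. Dendritic cells share many of these genes and present antigen to T cells. In a bulk sample fewer cells of a type and less RNA per cell cannot be told apart, so every value below is a level of RNA in the tissue and not a number of cells. The genes were ordered into 12 neutrophil genes, 12 genes of recruited or activated macrophages, 10 genes of resident macrophages or dendritic cells, and 12 genes shared by most myeloid cells or leukocytes; many are not exclusive to the class they stand in.

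The db/db mice did not form a uniform group. In db/db 1 nearly every gene of the set was far above the db/m mice, in db/db 2 most were moderately above, in db/db 3 some neutrophil and activation genes were high while resident macrophage genes were low, and in db/db 4 and db/db 5 the neutrophil genes lay near the db/m level while resident and shared myeloid genes lay below it. Of the 46 genes 43 were at least 2-fold above the db/m mean in db/db 1, where 9.83% of all genes were. The count was 20 in db/db 2 (2.81% of all genes), 8 in db/db 3 (1.72%), 0 in db/db 4 (0.989%) and 0 in db/db 5 (1.51%). In the other direction 1 of 46 genes was at least 2-fold below the db/m mean in db/db 1 (4.6% of all genes), 1 in db/db 2 (1.1%), 5 in db/db 3 (1.54%), 2 in db/db 4 (0.995%) and 12 in db/db 5 (1.37%). These are counts for single mice, which have no replicate, and no test was made on them.

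**Figure D1:**
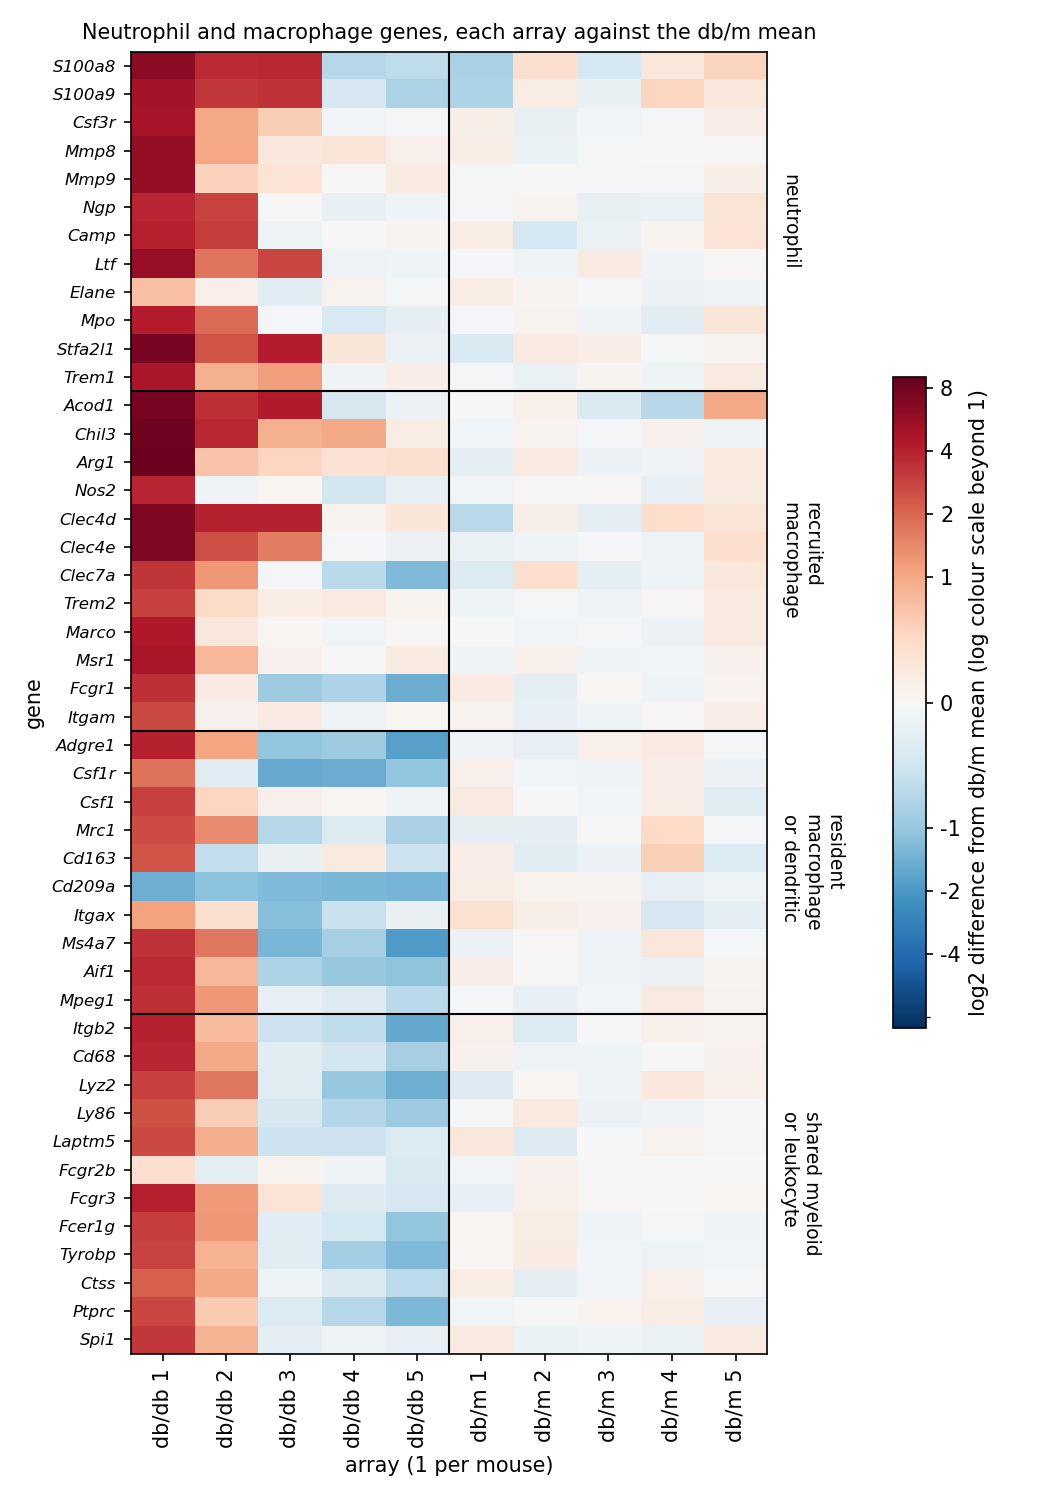
Log2 difference of each array from the mean of the 5 db/m arrays, with 46 genes in rows, grouped in 4 classes, and the 10 arrays in columns, db/db to the left of db/m. Red is above and blue below the db/m mean; db/db 1 is above it for 45 genes and below it for Cd209a, and the resident and shared classes are mostly blue in db/db 3, db/db 4 and db/db 5.

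By limma with Benjamini-Hochberg adjustment over all genes, 0 of the 46 genes rose and 1 fell in db/db. Of all genes 6.51% passed, 2.96% as higher and 3.54% as lower. The gene that fell was Cd209a. At an unadjusted p under 0.05 the set held 3 genes, of which 2 were higher and 1 lower, and 21.5% of all genes passed that limit. The median change over the 46 genes was 0.66, beside -0.03 over all genes, and 42 of the 46 changes were above 0. The spread behind these changes was wide: the median SD over the set was 1.90 among the 5 db/db arrays and 0.17 among the 5 db/m arrays, beside 0.22 and 0.15 over all genes. Without db/db 1 the median SD of the set among the other 4 db/db arrays was 0.76, beside 0.14 over all genes. No filter on low values was set, and 11 of the 46 genes lay among the dimmest 25% of all genes by mean level. That mean takes in db/db 1, so genes high there can lie outside this count though dim in db/m mice. Stfa2l1, Acod1 and Arg1 did so, with db/m means of 4.56, 4.93 and 5.03, beside 4.81 for Itgam, which is counted. No detection call was made, so folds over a db/m level as dim as that of these genes, Mmp8 or Chil3 are approximate.

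The array of db/db 1 stood apart from the other 9 over all genes, with a Pearson r of 0.938 to 0.962 across genes, and array weights gave it 0.10, the lowest of the 10. Changes of the named genes and medians of the classes are therefore given also without it. Without db/db 1, limma called 1 gene of the set higher, Arg1, and 2 lower, Csf1r and Cd209a, where 6.84% of all genes passed as higher and 5.93% as lower, 12.8% in all. The median change over the set was then 0.03, with 23 of 46 changes above 0, and 19 of the 46 genes had a change of the opposite sign to that with all arrays. The ratio of 3' to 5' signal of the control transcripts, a measure of RNA integrity, overlapped between the groups. On the log2 scale the ratio for Gapdh was 0.54 to 0.82 in db/db and 0.58 to 0.91 in db/m. That for beta-actin was 0.72 to 1.80 in db/db, lowest in db/db 1, and 0.99 to 1.89 in db/m; its part in the results was not tested.

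**Figure D2:**
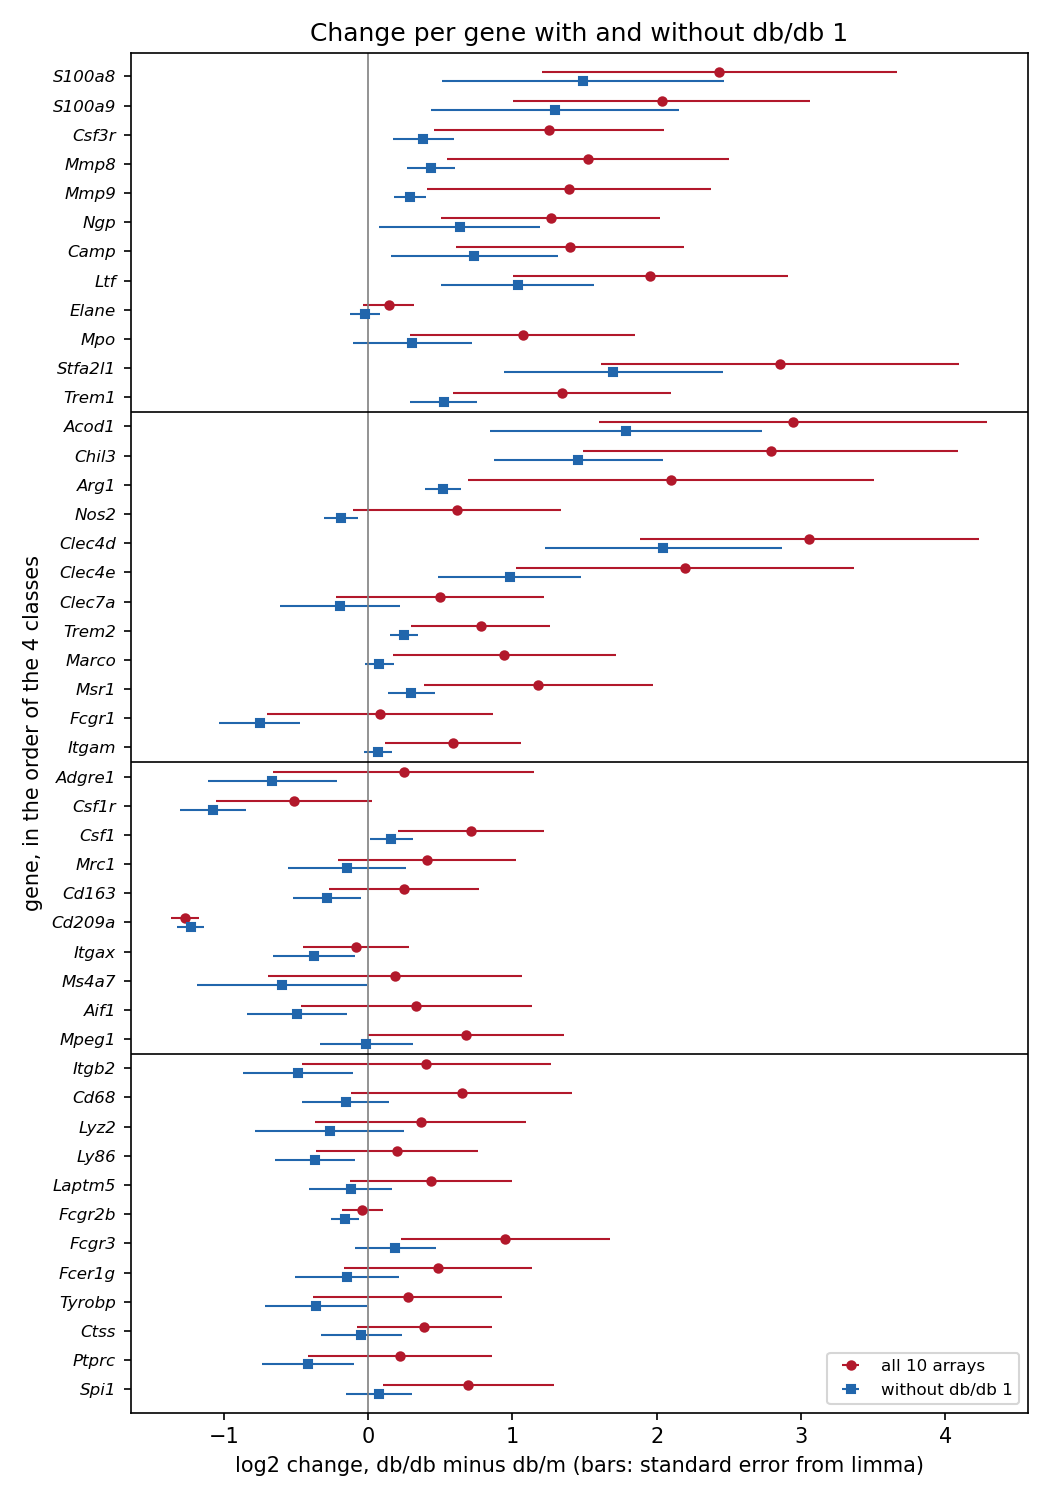
Log2 change, db/db minus db/m, of each of the 46 genes with its standard error from limma, in circles for all 10 arrays and in squares without db/db 1. Cd209a is at -1.27 with all arrays and -1.23 without db/db 1, while most squares of the neutrophil and recruited classes lie nearer 0 than their circles and most of the resident and shared classes lie below 0.

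Among the neutrophil genes, S100a8 and S100a9, which encode the 2 subunits of the alarmin calprotectin and are abundant in neutrophils and monocytes, separated the db/db mice into 3 high and 2 low. S100a8 was 13.52, 10.96, 11.00, 6.58 and 6.66 in db/db mice 1 to 5, against 6.47, 7.73, 6.85, 7.60 and 7.89 in db/m mice 1 to 5. In db/db 1, 2 and 3 it was 74.1-fold, 12.5-fold and 13.0-fold above the db/m mean, and in db/db 4 and 5 it lay within the db/m range. The group means were 9.74 ± 3.04 in db/db mice and 7.31 ± 0.62 in db/m mice (SD, n = 5 each), and the change was not past the threshold (2.43 ± 1.23, adjusted p = 0.285; without db/db 1 1.49 ± 0.98, adjusted p = 0.381). S100a9 was 13.99, 12.11, 12.31, 8.57 and 8.18 in db/db mice 1 to 5, against 8.18, 9.19, 8.80, 9.55 and 9.26 in db/m mice 1 to 5. It was high in the same 3 mice, and the change was again within the spread among the db/db mice (2.03 ± 1.03, adjusted p = 0.286; without db/db 1 1.30 ± 0.86, adjusted p = 0.389). Both genes lie on chromosome 3 in GRCm38, S100a8 at 90669071 to 90670034 and S100a9 at 90692630 to 90695721.

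To show what stands before these neighbouring genes, before the neighbouring lectin genes Clec4d and Clec4e on chromosome 6, which were high in the same 3 mice, and before Cd209a, the gene that fell, the 250 bases upstream of each annotated start are given from RefSeq (GRCm38.p6), 5′ to 3′. The 5 genes were chosen after their values were seen. Capitals mark the core GAGGAA bound by PU.1, or TTCCTC where it lies on the other strand; PU.1 is the factor that Spi1 encodes. Capitals also mark the C/EBP pattern TTNNGNAA, or TTNCNNAA where it lies on the other strand, and the TATA box TATAAA on the gene's strand; no base lay in more than 1 of these matches.
S100a8 (chr3:90668821-90669070, plus strand): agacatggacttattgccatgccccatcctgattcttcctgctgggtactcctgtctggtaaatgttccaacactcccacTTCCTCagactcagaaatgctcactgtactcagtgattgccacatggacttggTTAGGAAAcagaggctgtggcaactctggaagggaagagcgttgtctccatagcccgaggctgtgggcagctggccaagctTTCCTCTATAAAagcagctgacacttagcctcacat
S100a9 (chr3:90695722-90695971, minus strand): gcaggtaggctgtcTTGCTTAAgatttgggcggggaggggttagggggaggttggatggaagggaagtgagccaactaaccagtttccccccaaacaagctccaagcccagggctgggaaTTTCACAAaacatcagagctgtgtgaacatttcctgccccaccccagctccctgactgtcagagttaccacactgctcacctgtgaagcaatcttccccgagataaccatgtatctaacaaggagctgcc
Clec4d (chr6:123261857-123262106, plus strand): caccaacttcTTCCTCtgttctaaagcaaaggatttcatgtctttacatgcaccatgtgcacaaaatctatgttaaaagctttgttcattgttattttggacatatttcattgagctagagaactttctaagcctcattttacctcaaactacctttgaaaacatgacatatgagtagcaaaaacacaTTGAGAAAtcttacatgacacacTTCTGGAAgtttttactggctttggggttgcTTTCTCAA
Clec4e (chr6:123289872-123290121, minus strand): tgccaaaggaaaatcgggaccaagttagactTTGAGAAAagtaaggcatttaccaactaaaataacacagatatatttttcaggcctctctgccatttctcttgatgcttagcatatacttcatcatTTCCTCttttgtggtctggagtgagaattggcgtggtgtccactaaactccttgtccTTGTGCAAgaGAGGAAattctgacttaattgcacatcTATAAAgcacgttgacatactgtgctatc
Cd209a (chr8:3748985-3749234, minus strand): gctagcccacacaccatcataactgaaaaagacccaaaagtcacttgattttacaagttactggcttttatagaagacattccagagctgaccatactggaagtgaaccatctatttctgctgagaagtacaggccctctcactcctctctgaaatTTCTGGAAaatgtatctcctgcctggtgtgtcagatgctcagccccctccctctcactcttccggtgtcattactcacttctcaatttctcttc
S100a8 had 2 matches to the PU.1 core and 1 TATA box, Clec4d had 1 PU.1 core and 0 TATA boxes, Clec4e had 2 and 1, and S100a9 and Cd209a had 0 of either in this window. The C/EBP pattern had 1 match before S100a8, 2 before S100a9, 3 before Clec4d, 2 before Clec4e and 1 before Cd209a. RefSeq windows were found for 37 of the 47 genes, 41 windows in all. The PU.1 core was in 61.0% of them and in 23.3% of the 32851 windows of all genes, the C/EBP pattern in 56.1% and 36.8%, and the TATA box in 9.76% and 7.59%. These are matches of letters, and a window without one says nothing of the factor.

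Stfa2l1, which encodes a stefin, an inhibitor of cysteine proteases found in neutrophils, had the largest change of the neutrophil genes. It was 12.05, 6.96, 8.78, 4.87 and 4.41 in db/db mice 1 to 5, against 4.16, 4.77, 4.72, 4.50 and 4.63 in db/m mice 1 to 5. It was 180-fold above the db/m mean in db/db 1, 5.29-fold in db/db 2 and 18.7-fold in db/db 3, but not past the threshold (2.86 ± 1.24, adjusted p = 0.218; without db/db 1 1.70 ± 0.76, adjusted p = 0.189). The mouse stefin genes of this cluster are close copies of each other, so the probes need not measure this gene alone.

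Mmp8, the neutrophil collagenase, was 9.88, 5.01, 4.28, 4.34 and 4.13 in db/db mice 1 to 5, against 4.20, 3.83, 3.95, 4.02 and 4.03 in db/m mice 1 to 5. The value in db/db 1 was 58.7-fold above the db/m mean and that in db/db 2 was 2.01-fold above it, and the change did not pass (1.52 ± 0.98, adjusted p = 0.408; without db/db 1 0.44 ± 0.16, adjusted p = 0.12). Elane, the gene of neutrophil elastase, whose RNA is made mainly by precursors in bone marrow, differed least in db/db 1 of the 12 neutrophil genes. Elane was 5.14, 4.49, 4.08, 4.45 and 4.31 in db/db mice 1 to 5, against 4.55, 4.43, 4.34, 4.19 and 4.25 in db/m mice 1 to 5, and its change was 0.14 ± 0.17 (adjusted p = 0.685; without db/db 1 -0.02 ± 0.10, adjusted p = 0.935). The signal of Elane is dim, at percentile 12.4 of all genes by mean level. Of the set's neutrophil genes 11 were at least 2-fold above the db/m mean in db/db 1, 8 in db/db 2, 5 in db/db 3, and 0 in db/db 4 and db/db 5.

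The neutrophil genes did not follow 1 pattern across db/db 2 and db/db 3, and the genes that show this were chosen after their values were seen. Ngp and Camp, both cathelicidin-related genes of the secondary granules, differed from the db/m mean by 2.83 and 2.98 in db/db 2, and by -0.01 and -0.12 in db/db 3. Mpo, the myeloperoxidase gene of the primary granules, differed by 4.13 in db/db 1, by 1.90 in db/db 2 and by -0.03 in db/db 3. Ltf, the lactoferrin gene, which some epithelia also express, had differences of 1.70 in db/db 2 and 2.71 in db/db 3. Thus S100a8, S100a9, Stfa2l1, Ltf and Trem1, the receptor gene that amplifies neutrophil and monocyte activation, were at least 2-fold above the db/m mean in db/db 3, and Ngp, Camp and Mpo were not. Csf3r, the receptor gene for the neutrophil growth factor, had differences of 4.74, 0.99, 0.64, -0.07 and -0.03 in db/db mice 1 to 5, and the gelatinase gene Mmp9 had differences of 5.81, 0.60, 0.35, 0.00 and 0.21.

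Over the 12 neutrophil genes the mean difference from the db/m mean was 4.84 in db/db 1, 1.85 in db/db 2, 1.32 in db/db 3, -0.11 in db/db 4 and -0.13 in db/db 5, while the db/m arrays lay between -0.12 and 0.20. The median change was 1.40, and 0.58 without db/db 1, with 0 genes called in either fit. Of all genes 6.51% were called with all arrays and 12.8% without db/db 1. The lowest adjusted p with all arrays was 0.218. Of 18 further neutrophil genes, 12 were measured and named, and 0 were called, with a list median of 1.20 and, without db/db 1, of 0.51. Their mean difference was 4.52, 1.57, 1.13, -0.25 and -0.13 in db/db mice 1 to 5. Lcn2, the lipocalin that neutrophils and injured tubules both make, was nearest to the threshold among them (3.20 ± 1.37, adjusted p = 0.211).

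**Figure D3:**
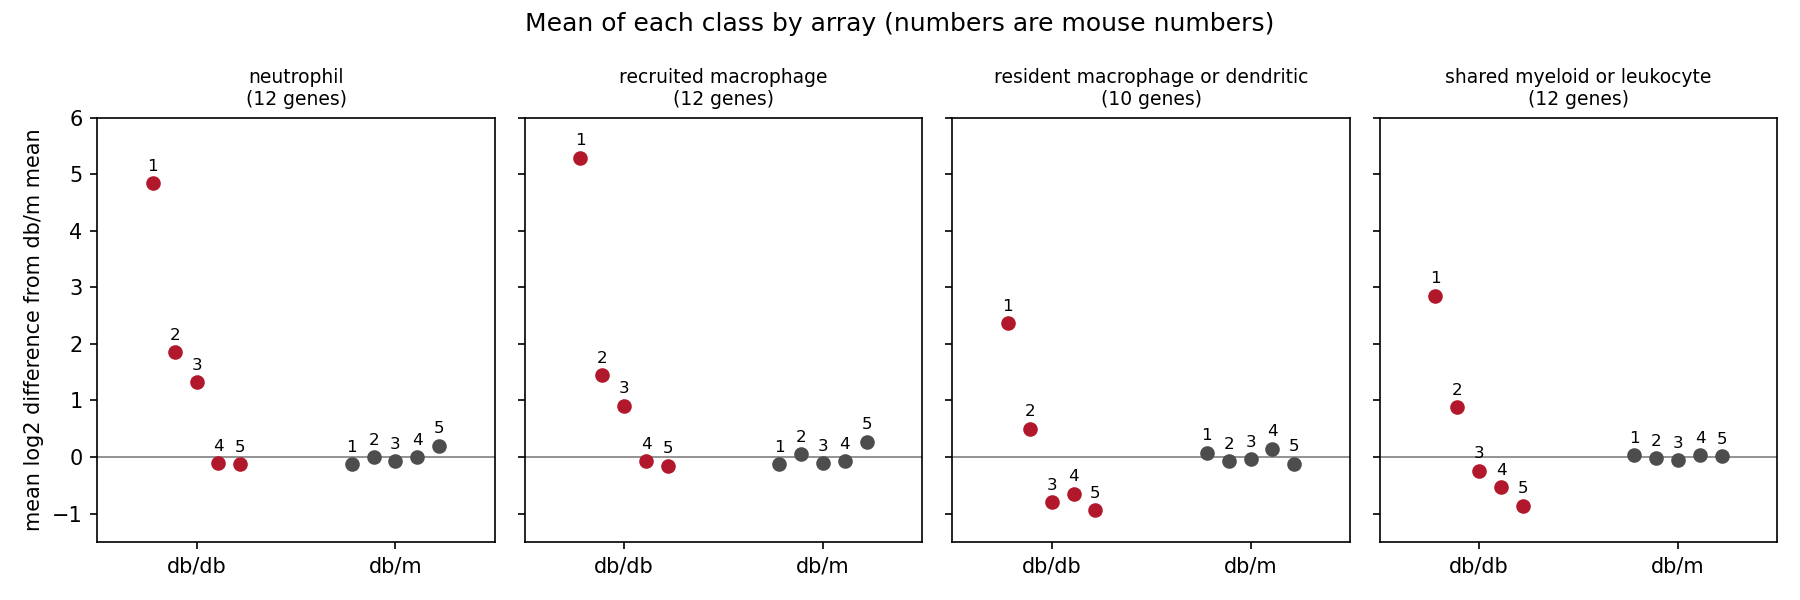
Mean log2 difference from the db/m mean over the genes of each class, 1 point per array with the mouse number above it, db/db left of db/m. The neutrophil and recruited macrophage means are high in db/db 1, 2 and 3 and near 0 in db/db 4 and 5, whereas the resident and shared means are above 0 in db/db 1 and 2 and below 0 in db/db 3, 4 and 5.

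Among genes of recruited or activated macrophages, Arg1, Chil3 and Acod1 had the largest differences in db/db 1. Arg1, the arginase gene of alternatively activated macrophages, which tubule cells can also express, was 13.47, 5.77, 5.58, 5.40 and 5.45 in db/db mice 1 to 5, against 4.78, 5.27, 4.89, 4.94 and 5.28 in db/m mice 1 to 5. All 5 db/db mice were above all 5 db/m mice, by 346-fold of the db/m mean in db/db 1 and by 1.29-fold to 1.66-fold in the other 4. With all arrays the change was not past the threshold (2.10 ± 1.41, adjusted p = 0.432), and without db/db 1, which holds most of the spread, Arg1 rose by 0.52 ± 0.13 (adjusted p = 0.0256). In that fit 6.84% of all genes were called higher. Arg1 was called in 1 of the 10 fits that left out 1 array, and not with array weights (limma adjusted p = 0.356). Nor was it called without db/db 1 when the replicate block was added. Outside db/db 1 its values, 4.78 to 5.77, are dim, and no detection call was made.

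Chil3, a chitinase-like protein gene of macrophages and neutrophils, was 11.92, 7.53, 4.70, 4.78 and 3.99 in db/db mice 1 to 5, against 3.72, 3.89, 3.77, 3.91 and 3.68 in db/m mice 1 to 5. It too was above all db/m mice in every db/db mouse, from 279-fold of the db/m mean in db/db 1 to 1.14-fold in db/db 5, without passing the threshold (2.79 ± 1.30, adjusted p = 0.249; without db/db 1 1.46 ± 0.59, adjusted p = 0.144). Chil3 and Chil4 are near copies of each other, so their signals may be mixed. Arg1 and Chil3 were the 2 genes of the set with the db/db arrays all above the db/m arrays, as 4.35% of all genes were. Acod1, the enzyme gene that makes itaconate in activated macrophages, was 12.49, 8.36, 9.21, 4.52 and 4.77 in db/db mice 1 to 5, against 4.92, 5.05, 4.54, 4.21 and 5.90 in db/m mice 1 to 5. It was 190-fold, 10.8-fold and 19.5-fold above the db/m mean in db/db 1, 2 and 3 and within the db/m range in db/db 4 and 5 (2.94 ± 1.34, adjusted p = 0.24; without db/db 1 1.79 ± 0.94, adjusted p = 0.267).

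The C-type lectin receptor genes Clec4d and Clec4e, whose proteins pair to sense mycobacterial glycolipids and dead cells, gave large differences and were added after their values were seen, since the rule for naming did not take them. Clec4d was 13.25, 10.04, 10.04, 6.23 and 6.47 in db/db mice 1 to 5, against 5.45, 6.31, 5.91, 6.60 and 6.48 in db/m mice 1 to 5. The change was the largest of the 46 genes and did not pass (3.06 ± 1.17, adjusted p = 0.162; without db/db 1 2.05 ± 0.82, adjusted p = 0.145). Clec4e differed from the db/m mean by 7.06, 2.54, 1.55, -0.02 and -0.15 in db/db mice 1 to 5.

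Itgam, the integrin gene of CD11b, which marks most myeloid cells, differed least in db/db 1 among this class. Itgam was 7.49, 4.91, 5.02, 4.71 and 4.86 in db/db mice 1 to 5, against 4.91, 4.60, 4.70, 4.84 and 4.98 in db/m mice 1 to 5, and the change was 0.59 ± 0.47 (adjusted p = 0.518; without db/db 1 0.07 ± 0.10, adjusted p = 0.724). This row is dim, at percentile 19.2 of all genes by mean level, so a small difference here is a weak measure of the gene. The inducible nitric oxide synthase gene Nos2 and the scavenger receptor genes Marco and Msr1 were at 3.82, 4.41 and 4.70 above the db/m mean in db/db 1 and between -0.48 and 0.86 in the other 4 db/db mice. Trem2, a receptor gene of lipid-handling macrophages, was at 2.90 in db/db 1 and between 0.08 and 0.49 in the others. Fcgr1, the high affinity receptor gene for IgG, differed by 3.42, 0.22, -0.93, -0.80 and -1.49 in db/db mice 1 to 5. It lay below all db/m mice in db/db 3, 4 and 5, whereas the mean of its class did so in db/db 5 alone. Clec7a, the receptor gene for fungal glucans, differed by 3.27, 1.17, -0.03, -0.70 and -1.22.

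Over the 12 measured genes of the class the mean difference was 5.29, 1.45, 0.90, -0.08 and -0.16 in db/db mice 1 to 5, and -0.13 to 0.27 in the db/m mice. The median change was 1.06 with all arrays and 0.27 without db/db 1. With all arrays 0 of the 12 genes were called by limma, at a lowest adjusted p of 0.162, and 6.51% of all genes were called. Without db/db 1 limma called 1 of the 12, and 12.8% of all genes.

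**Figure D4:**
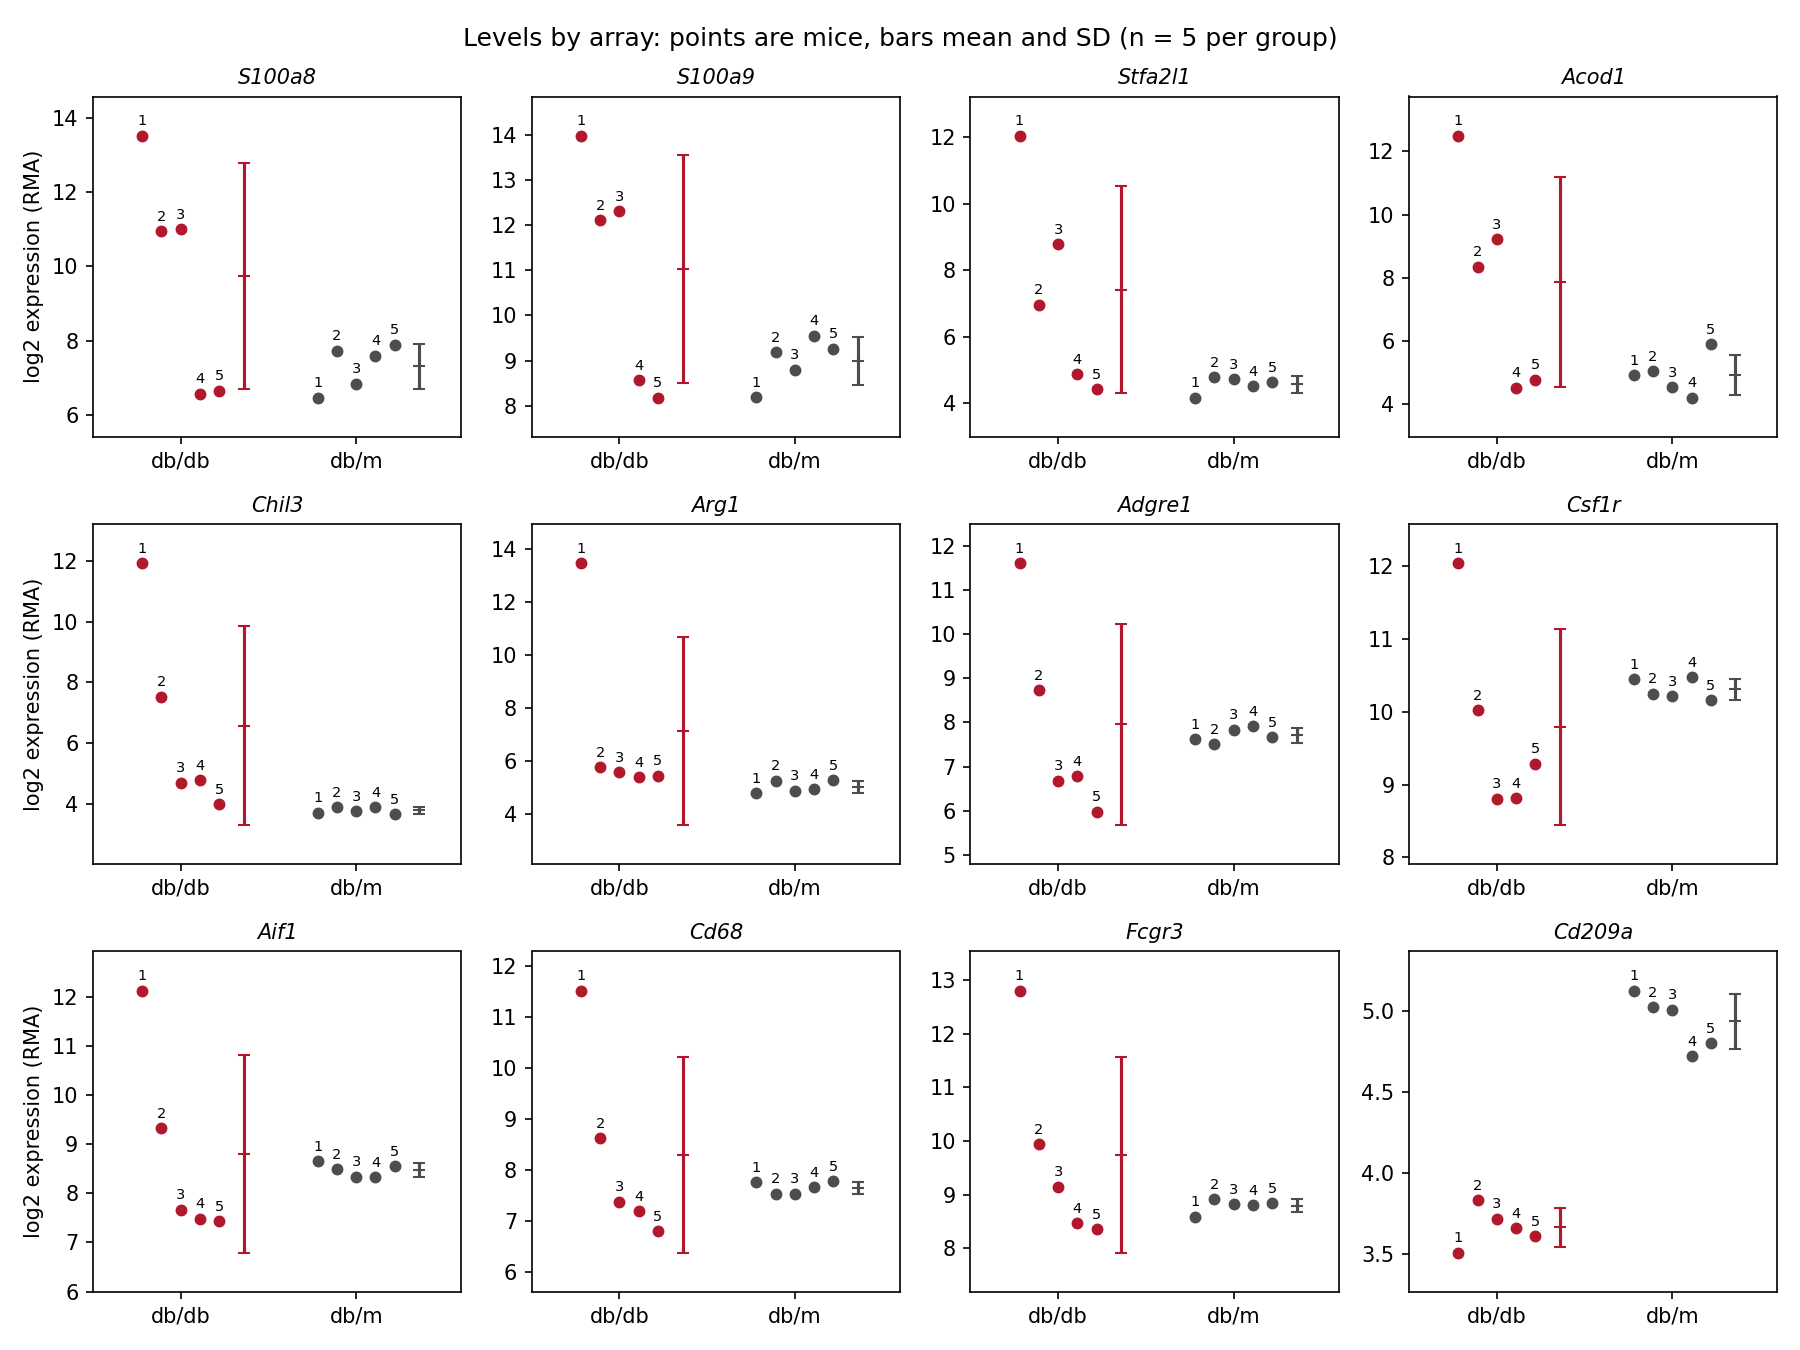
Log2 expression of 12 of the genes in each mouse, db/db left of db/m in each panel, with mouse numbers above the points and the mean and SD of each group (n = 5) beside them. S100a8, S100a9, Stfa2l1 and Acod1 are high in db/db 1, 2 and 3, Adgre1, Csf1r and Aif1 are lowest in db/db 3, 4 and 5, and Cd209a is the 1 panel with the db/db points all below the db/m points.

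Among resident macrophage and dendritic genes, Cd209a fell in db/db. It encodes a C-type lectin of the DC-SIGN family, known from dendritic cells and monocyte-derived cells. Cd209a was 3.51, 3.83, 3.72, 3.66 and 3.61 in db/db mice 1 to 5, against 5.12, 5.02, 5.01, 4.72 and 4.80 in db/m mice 1 to 5. Every db/db mouse lay below every db/m mouse, which held for 1 of the 46 genes and for 5.85% of all genes. The mean was 3.67 ± 0.12 in db/db mice and 4.93 ± 0.17 in db/m mice (SD, n = 5 each), a change of -1.27 ± 0.10 or 2.41-fold lower (adjusted p = 0.000232). The call was kept in all 10 fits that left out 1 array, with adjusted p from 0.000214 to 0.0014. Cd209a was the 1 gene of the set that did not have its highest value in db/db 1, where it was in fact lowest. Its signal is dim, at percentile 11.2 of all genes by mean level, and several close relatives of the gene lie beside it on chromosome 8, so the row may not measure this gene alone.

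Csf1r, the receptor gene on which macrophage survival depends, lay below the db/m range in 4 of the 5 db/db mice. Csf1r was 12.04, 10.02, 8.80, 8.81 and 9.28 in db/db mice 1 to 5, against 10.45, 10.25, 10.21, 10.48 and 10.16 in db/m mice 1 to 5. The exception was db/db 1, where it was above all 5 db/m mice. With all arrays the change was -0.52 ± 0.54 (adjusted p = 0.63); without db/db 1 Csf1r fell by 1.08 ± 0.23, or 2.11-fold (adjusted p = 0.0137). Csf1, the gene of its ligand, which tubule cells and fibroblasts also make, differed by 2.92, 0.55, 0.13, 0.05 and -0.09 in db/db mice 1 to 5. The second ligand of the receptor, Il34, is made by tubule cells and was measured in the list of attractants and growth factors; it was named after its values were seen. Il34 differed from the db/m mean by 1.41, -1.43, -2.68, -2.76 and -2.71 in db/db mice 1 to 5, and it fell by 2.39 in the fit without db/db 1 (adjusted p = 0.00186), beside a change of -1.63 ± 0.74 with all arrays (adjusted p = 0.235).

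Adgre1, the gene of an adhesion receptor widely used to mark mouse macrophages, was 11.60, 8.73, 6.68, 6.79 and 5.98 in db/db mice 1 to 5, against 7.63, 7.51, 7.84, 7.92 and 7.67 in db/m mice 1 to 5. It was above all db/m mice in db/db 1 and 2 and below all of them in db/db 3, 4 and 5. Its change was 0.24 ± 0.91, adjusted p = 0.905, and without db/db 1 -0.67 ± 0.45, adjusted p = 0.395. Aif1, which encodes the calcium-binding protein Iba1 of macrophages, was 12.12, 9.33, 7.66, 7.49 and 7.43 in db/db mice 1 to 5, against 8.65, 8.50, 8.34, 8.33 and 8.55 in db/m mice 1 to 5. It showed the same split of 2 mice above and 3 below all db/m mice (0.33 ± 0.80, adjusted p = 0.847; without db/db 1 -0.49 ± 0.35, adjusted p = 0.418). Mpeg1, the gene of the macrophage pore-forming protein perforin-2, was 12.68, 10.43, 9.01, 8.91 and 8.54 in db/db mice 1 to 5, against 9.18, 9.02, 9.17, 9.48 and 9.32 in db/m mice 1 to 5. It also had 2 db/db mice above and 3 below the db/m range (0.68 ± 0.68, adjusted p = 0.614, and without db/db 1 -0.01 ± 0.32, adjusted p = 0.988). Of these, db/db 3 at 9.01 was barely under the lowest db/m value of 9.02.

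The remaining genes of the class had differences of 1.06 to 3.32 in db/db 1. Ms4a7, a tetraspan gene of tissue macrophages, split like Adgre1, with differences of 3.32, 1.66, -1.29, -0.87 and -1.89 in db/db mice 1 to 5. The mannose receptor gene Mrc1 did so as well, with 2.62, 1.36, -0.74, -0.36 and -0.85. Itgax, the integrin gene of CD11c, differed by 1.06, 0.42, -1.13, -0.58 and -0.20, and the haemoglobin scavenger receptor gene Cd163 by 2.38, -0.64, -0.20, 0.26 and -0.56. The mean over the 10 genes was 2.36, 0.50, -0.80, -0.65 and -0.94 in db/db mice 1 to 5, and -0.12 to 0.14 in the db/m mice. In db/db 3, 4 and 5, 8 of the 10 genes lay below all db/m mice, as 26.1%, 21.9% and 24.2% of all genes did. The median change was 0.25 with all arrays and -0.43 without db/db 1.

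Genes shared by most myeloid cells or leukocytes were, as a class, also highest in db/db 1 and lowest in db/db 5. Itgb2, the beta chain gene of the leukocyte integrins, was 11.65, 8.52, 7.16, 7.03 and 6.13 in db/db mice 1 to 5, against 7.83, 7.35, 7.70, 7.84 and 7.76 in db/m mice 1 to 5. It was highest in db/db 1 and lowest in db/db 5 (0.40 ± 0.86, adjusted p = 0.827; without db/db 1 -0.49 ± 0.38, adjusted p = 0.477). Cd68, the lysosomal glycoprotein gene of macrophages, was 11.51, 8.62, 7.37, 7.18 and 6.80 in db/db mice 1 to 5, against 7.76, 7.53, 7.53, 7.66 and 7.77 in db/m mice 1 to 5. Db/db 1 and 2 were above and db/db 3, 4 and 5 below all db/m mice (0.65 ± 0.77, adjusted p = 0.672; without db/db 1 -0.16 ± 0.30, adjusted p = 0.81). Fcgr3, a receptor gene for IgG complexes, was 12.80, 9.93, 9.15, 8.46 and 8.36 in db/db mice 1 to 5, against 8.58, 8.91, 8.82, 8.80 and 8.83 in db/m mice 1 to 5, with 3 db/db mice above and 2 below the db/m range (0.95 ± 0.73, adjusted p = 0.497; without db/db 1 0.19 ± 0.28, adjusted p = 0.745).

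Fcgr2b, the inhibitory receptor gene for IgG, which B cells and some endothelia also express, differed least in db/db 1 of this class. Fcgr2b was 11.97, 11.29, 11.62, 11.44 and 11.13 in db/db mice 1 to 5, against 11.46, 11.64, 11.52, 11.52 and 11.52 in db/m mice 1 to 5, a change of -0.04 ± 0.14 (adjusted p = 0.899; without db/db 1 -0.16 ± 0.10, adjusted p = 0.33). Fcgr2b and Fcgr3 are alike in the part that encodes the extracellular domains, so probes there could be shared, although the 2 rows differed in pattern. Fcer1g, the signalling chain gene of the activating IgG receptors, differed by 3.00, 1.19, -0.30, -0.46 and -1.02 in db/db mice 1 to 5. Tyrobp, the adaptor gene of the Trem receptors, differed by 2.82, 0.89, -0.27, -0.88 and -1.20. The lysozyme gene Lyz2 differed by 2.88, 1.64, -0.30, -0.97 and -1.43 and the leukocyte phosphatase gene Ptprc, which encodes CD45, by 2.77, 0.69, -0.36, -0.74 and -1.27. Spi1, the gene of PU.1, the transcription factor that specifies myeloid cells, differed by 3.18, 0.90, -0.25, -0.14 and -0.22. The remaining genes Ly86, Laptm5 and Ctss, the last of them the cathepsin S gene, had differences of 2.14 to 2.66 in db/db 1 and -0.95 to -0.36 in db/db 5.

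Over the 12 shared genes the mean difference was 2.85, 0.88, -0.24, -0.53 and -0.86 in db/db mice 1 to 5, and -0.05 to 0.03 in the db/m mice. In db/db 5 all 12 were below all 5 db/m mice, in db/db 4 there were 11 and in db/db 3 there were 8. The median change was 0.40 with all arrays and -0.16 without db/db 1, and 0 were called by limma in either fit. Of all genes 6.51% were called with all arrays and 12.8% without db/db 1. In the whole set 1, 4, 18, 25 and 24 of the 46 genes lay below all db/m mice in db/db mice 1 to 5, where 49.4%, 27.0%, 26.1%, 21.9% and 24.2% of all genes did. Above all db/m mice lay 45, 39, 15, 5 and 4, where 25.1%, 23.6%, 24.0%, 22.2% and 25.6% of all genes did.

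Further myeloid genes were measured as lists beside the set. Over all genes 2.96% were called higher and 3.54% lower with all arrays, and 6.84% and 5.93% without db/db 1. Of 23 attractants and growth factors of myeloid cells 1 rose, the endothelial adhesion gene Sele (0.38 ± 0.10, adjusted p = 0.0485), with a list median of 0.99 and, without db/db 1, of 0.18. Their mean difference was 4.47, 1.12, 1.01, -0.38 and -0.50 in db/db mice 1 to 5. Of 28 further monocyte and macrophage genes 23 were measured and named, and 1 rose, the apolipoprotein gene Apoe, which many cell types express (1.55 ± 0.31, adjusted p = 0.0187). The list median was 0.33 and, without db/db 1, -0.17; in that fit Apoe and the galectin gene Lgals3 rose and Ccr2, the receptor gene that brings monocytes from blood, fell by 0.61 (adjusted p = 0.041). Also named after their values were seen, the complement genes C1qa, C1qb and C1qc, typical of resident macrophages, differed by 2.77, 2.43 and 2.80 in db/db 1 and by -1.12, -0.80 and -1.02 in db/db 5. Folr2, Timd4 and Lyve1 of the same list differed less. Their differences were 0.43, 0.49 and -0.09 in db/db 1 and -0.49, 0.07 and -0.07 in db/db 5. Of 14 measured dendritic cell genes 0 were called by limma, with a list median of 0.21; H2-Ab1, an MHC class II gene, had the lowest adjusted p (0.94 ± 0.35, adjusted p = 0.146). Without db/db 1 the list median was 0.13, and Ccr7, the receptor gene that guides dendritic cells and T cells to lymph nodes, fell by 0.63 (adjusted p = 0.00801).

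Markers of other cells were measured as lists. With all arrays 0 of 12 T cell, 0 of 6 B cell, 0 of 7 NK cell, 0 of 7 mast cell, 0 of 6 red cell and platelet, 0 of 10 tubule and 0 of 7 fibroblast genes were called by limma. The mean difference in db/db mice 1 to 5 was 1.66, 0.16, -0.34, -0.35 and -0.47 for the T cell list and 2.21, -0.13, -0.34, -0.38 and -0.80 for the NK cell list. Those of the B cell list were 0.44, -0.01, -0.40, -0.49 and -0.22, and its gene nearest to the threshold was Jchain, the joining chain gene of plasma cells (-1.08 ± 0.34, adjusted p = 0.0939). Without db/db 1, Jchain, the T cell gene Cd2, the NK cell genes Nkg7 and Klrd1 and the mural cell gene Pdgfrb of the fibroblast list fell, by 0.54 to 1.29. In the same fit the mast cell gene Ms4a2, the tubule genes Slc12a3 and Aqp2 and the anion exchanger gene Slc4a1 rose, by 0.35 to 0.93. Over all genes 5.93% passed as lower and 6.84% as higher in that fit. The fibroblast list had mean differences of 1.98, 0.46, -0.78, -0.37 and -0.33 in db/db mice 1 to 5, so that it too was above 0 in db/db 1 and 2 and below 0 in db/db 3, 4 and 5, as were the resident macrophage means. The red cell and platelet genes went opposite ways in db/db 1, with differences of 4.26 for Pf4 and 2.21 for Ppbp, both platelet chemokine genes, and of -3.03 for Slc4a1, which kidney intercalated cells also express, and -0.84 for Itga2b. Alas2 and Gp9 of this list lay at -0.04 and 0.04 there. The list means were 0.43, 0.38, -0.13, 0.09 and 0.29 in db/db mice 1 to 5. They are not read as a measure of blood left in the tissue, which was not tested. The tubule list was at -0.60 in db/db 1 and between 0.10 and 0.24 in the other db/db mice. Of 9 tubular injury genes 4 rose, among them the keratin gene Krt19 (1.92 ± 0.42, adjusted p = 0.0261) and the cell cycle inhibitor gene Cdkn1a (1.77 ± 0.34, adjusted p = 0.0154). The mean differences of this list were 4.25, 1.61, 0.95, 0.42 and 0.49. It shares Lcn2 with the list of further neutrophil genes and Vcam1 with the list of attractants. Of 6 podocyte genes 4 rose, with a list median of 0.49, in cortex labelled as deprived of glomeruli. Without db/db 1, 5 of the injury genes and 6 of the podocyte genes rose. Of all genes 2.96% rose with all arrays and 6.84% without db/db 1. The part of these other cells in the values of the set was not tested.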

How the data were processed

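Kidney cortex without glomeruli from 5 db/db and 5 db/m mice gave 10 Affymetrix mouse genome arrays, per the labels. The deposited table holds log2 values, which the submitters' processing notes credit to RMA; which version, and how probes were regrouped into 1 row per Entrez gene, was not given in the sources used here. This method brings all arrays to nearly 1 distribution, so differences are relative to the other genes of an array. The values, 2.50 to 14.5 with array medians of 8.46 to 8.66, were used as deposited. Arrays give no counts, and precision depends on their number and on the spread among mice.

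Of 16539 rows 64 control rows were left out and 16475 genes tested, of which 695 were not in the supplied annotation and stayed unnamed. Mice are separate animals by their titles, and no arrays were copies. The groups were compared with limma 3.58.1 (R 4.3.3; lmFit and eBayes without trend, two-sided, db/db minus db/m, Benjamini-Hochberg over all genes, threshold 0.05) after a test on simulated data. The simulation recovered 27%, 78.5% and 96% of changes of 0.5, 1 and 2. It gave both groups the same spread for each gene, unlike the groups of this set, so it does not show how the fit performs on these genes. Errors of changes are standard errors from limma.

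The genes, classes and lists were chosen with earlier results of these data known. The rule for naming took genes past the threshold with or without db/db 1, the 3 largest and the smallest difference of each class in db/db 1, S100a8, S100a9 and Adgre1, and from each further list up to 2 called genes, or the gene with the lowest adjusted p. Ly6g was not analysed here. Other names were added after their values were seen. Alternatives were a replicate block, dim genes left out, quantile normalisation repeated, median centring, array weights, eBayes with trend and robust fitting, leaving out each array, an adjusted p under 0.01, a 1.5-fold change, a 4-fold limit and the db/m median. Fits with control rows kept, and without db/db 1 but with the block, were chosen after seeing the data. Figures were drawn with matplotlib 3.10.9 in Python 3.11.15.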

Additional observations from a re-analysis of the deposited data

Results flagged for a closer look

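In 11 of the 46 genes the array of db/db 1 was farther from the other db/db arrays than Dixon's critical value for 5 samples allows, which is a gap of 0.71 of the group's range; chance gives about 1 such group in 20. Over all genes 14.3% had db/db 1 past this limit, 5.77% with db/db 1 as the highest array, as it was in all 11. The gap as a share of the range was 0.955 for Arg1, 0.918 for Marco, 0.898 for Mmp9, 0.887 for Itgam, 0.878 for Nos2, 0.857 for Trem2, 0.847 for Mmp8, 0.813 for Msr1, 0.786 for Csf1, 0.779 for Csf3r and 0.743 for Trem1. Genes such as S100a8 and Acod1, with 3 high db/db mice, do not pass this limit.

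Among the db/m arrays 3 of 46 genes passed it, beside 5.89% of all genes. Mmp9 and Clec4e were highest in db/m 5, with gaps of 0.776 and 0.781 of the range, and Itgb2 was lowest in db/m 2, with 0.727.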

How the results depend on the processing

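The number of genes of the set called higher was 0 to 1, and lower 1 to 2, when each array was left out; the changed counts came without db/db 1, when 1 rose and 2 fell. Array weights gave 2 lower, adding Csf1r (-1.11, adjusted p = 0.0155), and leaving out dim genes gave 0, because Cd209a is itself among the genes left out. With the mouse number as a replicate block 0 were higher and 1 lower, and 393 of all genes were called in place of 1072; the numbers did not pair the arrays, since the deviations of same-numbered mice correlated at -0.09 to 0.01. The block without db/db 1, chosen after seeing the data, also gave 0 and 1, so Arg1 and Csf1r were not called there; the cause was not tested. All genes called were 490 to 2104 with 1 array left out, 2641 with array weights, 279 at an adjusted p under 0.01 and 575 with at least a 1.5-fold change.

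When each array was left out, the median change of the set was 0.03 to 0.93, with 0.58 to 1.74 for neutrophil, 0.27 to 1.34 for recruited, -0.43 to 0.69 for resident and -0.16 to 0.73 for shared genes; the lowest value of each came without db/db 1. Adgre1, Aif1, Mpeg1, Itgb2 and Cd68 turned with array weights, to -0.66, -0.51, -0.0042, -0.45 and -0.13, and with 1 array left out ranged from -0.67 to 0.74, -0.49 to 0.68, -0.013 to 1.02, -0.49 to 0.89 and -0.16 to 1.02. Elane ranged from -0.021 to 0.24 and Fcgr2b from -0.16 to 0.049; none of these 7 was called in any fit. Leaving out each db/m array gave 42 to 43 genes at least 2-fold above the db/m mean in db/db 1, 18 to 23 in db/db 2, 8 in db/db 3, 0 to 1 in db/db 4 and 0 in db/db 5. At 4-fold db/db 2 had 9, and db/db 4 had 1 with repeated quantile normalisation or with the db/m median.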
